A study of Mus musculus with 14 samples.

Results

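Chemokines and their receptors were described in mouse uterus at estrus and diestrus. The genes were every row of the expression table whose symbol is a numbered Ccl, Cxcl, Ccr or Cxcr name, or Cx3cl1, Cx3cr1, Xcl1 or Xcr1, without Ccl11, Ccl24, Ccr3 and Cxcl15. The rule took 49 of 31274 gene symbols, 32 ligands and 17 receptors, and used no measured value. RNA was sequenced from the whole uterus of FVB/N females at 2 months of age that were intact and had no treatment. Their genotype label was either HIF2A cKO, a conditional knockout of the hypoxia-inducible factor HIF2A, or wild type (WT). The 14 libraries comprised 3 of HIF2A cKO uteri at estrus, 3 of WT uteri at estrus, 4 of HIF2A cKO uteri at diestrus and 4 of WT uteri at diestrus. No source used here gives the Cre line, the cells in which it acts or the deleted exons. No label says that libraries came from separate animals, so p-values measure the spread between these libraries, which may be technical. Values are FPKM, fragments per kilobase of transcript scaled to the library total, so that levels can be set side by side between genes.

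Chemokines are small secreted proteins that direct the movement of leukocytes through G protein-coupled receptors. CC and CXC names follow the spacing of the first cysteines, and most receptors bind several ligands. Homeostatic chemokines place cells in resting tissue, whereas inflammatory chemokines are induced by cytokines and microbial products. In the uterus, the leukocyte content of the wall changes over the estrous cycle under estrogen and progesterone, and the luminal epithelium is a mucosal surface that secretes chemokines of its own.

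FPKM summed to between 437879 and 497688 per library, and libraries within a group had correlations across genes of 0.956 to 0.994 on the log2 scale. The number of reads behind them is unknown. Epas1, the gene of HIF2A, averaged 41.2 ± 4.01 FPKM (SD, n = 3) in HIF2A cKO and 32.9 ± 1.56 (n = 3) in WT at estrus, and 39.5 ± 4.44 (n = 4) in HIF2A cKO and 34.8 ± 5.82 (n = 4) in WT at diestrus. The targeted gene was thus not lower where the label says knockout, and every direction between genotypes rests on the labels. At diestrus it was higher in HIF2A cKO without WT diestrus replicate 3 (0.29 log2, limma adjusted p = 0.0393). Epithelial, stromal and smooth muscle markers of the uterus were present in all libraries, with Krt8, Dcn and Acta2 group means of at least 97.2, 841 and 579 FPKM. Both diestrus libraries numbered 3 stood apart. The 10 markers of natural killer and cytotoxic cells, none of them at 0 in every library, summed to 146 FPKM in HIF2A cKO diestrus replicate 3 and 249 FPKM in WT diestrus replicate 3, against 14.5 to 39.9 FPKM in the other diestrus libraries. Results that these libraries move are given with and without them. At diestrus, the deviations of same-numbered libraries of the 2 genotypes correlated at 0.115 for number 2 up to 0.622 for number 3. HIF2A cKO replicate 2 was closer to WT replicate 1 than to WT replicate 2. A fit with the replicate number as a block was also used.

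The promoters of 3 CXC ligands are shown because these genes hold matches to motifs of inducible transcription and are described among the results. Each is a RefSeq window of GRCm38.p6 from 250 bases before to 50 after the gene start, written 5′ to 3′ on the strand of the gene. Capitals mark matches, on either strand, to the NF-kB core, GGGA and TTCC with 2 free bases between them, and to the interferon response core, GAAA and GAAA with 2 free bases between them. Overlapping matches were joined. Cxcl1 (chr5:90890995-90891294, plus strand) and Cxcl2 (chr5:90903649-90903948, plus strand) are neutrophil attractants, and Cxcl10 (chr5:92348840-92349139, minus strand) is induced by interferon.
Cxcl1: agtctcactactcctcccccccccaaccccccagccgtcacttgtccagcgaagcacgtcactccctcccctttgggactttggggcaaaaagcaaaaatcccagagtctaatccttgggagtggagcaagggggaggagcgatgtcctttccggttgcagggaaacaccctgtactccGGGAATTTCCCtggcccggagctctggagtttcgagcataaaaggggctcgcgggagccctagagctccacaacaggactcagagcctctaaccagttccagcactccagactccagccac
Cxcl2: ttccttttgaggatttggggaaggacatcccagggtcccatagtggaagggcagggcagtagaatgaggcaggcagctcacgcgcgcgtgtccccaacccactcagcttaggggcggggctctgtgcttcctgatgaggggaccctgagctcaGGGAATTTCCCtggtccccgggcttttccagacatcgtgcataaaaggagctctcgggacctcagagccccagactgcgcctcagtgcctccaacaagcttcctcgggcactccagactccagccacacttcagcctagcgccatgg
Cxcl10: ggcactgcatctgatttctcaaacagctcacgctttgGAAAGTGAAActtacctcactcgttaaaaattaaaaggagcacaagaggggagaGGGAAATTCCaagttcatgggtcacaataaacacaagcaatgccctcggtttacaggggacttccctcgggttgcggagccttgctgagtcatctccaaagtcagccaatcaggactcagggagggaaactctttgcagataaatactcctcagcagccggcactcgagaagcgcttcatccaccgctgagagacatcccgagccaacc
Of the 49 genes, 36 had a promoter in the table, with 40 windows. Cxcl17, Cxcl16, Cxcl5 and Ccl7 were among those without one. The NF-kB motif was found in 5 of the 40 windows (Ccl1, Cxcl1, Cxcl2, Cxcl3 and Cxcl10), while 1.47% of all 32851 promoter windows held it. Cxcl1, Cxcl2 and Cxcl3 are related genes close together on chromosome 5 and hold the same stretch, GGGAATTTCCC. The interferon motif was found in Ccl19, Cxcl10 and Cxcl14, while 3.44% of all windows held it. The HIF core ACGTG was in 5 of the 40 windows and GCGTG in 18, while 19.6% and 32.4% of all windows held them. The full palindrome of the estrogen response element, GGTCA and TGACC with 3 free bases between them, was in 0 of the 40 windows and in 0.0700% of all windows. ACANNNTGT, a core of the progesterone and glucocorticoid receptor motif, was in the Cxcl1 window alone and in 6.85% of all windows. These are matches of letters in a short window.

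Chemokine genes called over the cycle were mostly higher at estrus. Their share called, 60% in HIF2A cKO and 40% in WT, was not above that of all genes. Of the 49 genes, 30 reached at least 1 FPKM in at least 3 libraries and were tested, 22 ligands and 8 receptors. In HIF2A cKO, 17 of the 30 were higher at estrus and 1 was lower (limma on log2(FPKM + 1), adjusted p under 0.05), while 62% of the 14278 genes tested were called, 25.5% higher and 36.5% lower. In WT, 11 were higher and 1 was lower, while 57.2% of all genes were called, 23% higher and 34.1% lower. The median estrus minus diestrus difference of the 30 genes was 0.75 log2 in HIF2A cKO and 0.32 in WT, beside -0.08 and -0.09 for all genes tested. By kind, 15 of 22 ligands were higher and 0 lower in HIF2A cKO, and 10 were higher and 1 lower in WT. Among the 8 receptors 2 were higher and 1 lower in HIF2A cKO, and 1 was higher and 0 lower in WT. The called rises were shared by both genotypes in 10 genes, namely Ccl5, Ccl6, Ccl9, Ccl22, Ccl28, Cx3cl1, Cxcl5, Cxcl16, Cxcl17 and Cxcr4. Ccl22, Cxcl1 and Cxcl5 reached 1 FPKM in estrus libraries alone, and Ccl25 and Ccr10 in diestrus libraries alone. They passed the filter only through the stage where they were high, so these counts include calls that the filter favoured. Without both diestrus libraries numbered 3, 24 genes were called in HIF2A cKO and 16 in WT, while 66.5% and 61.1% of all genes were. With library weights, Ccl2, Ccl8, Ccr2 and Xcl1 also passed in both genotypes, Ccl7, Ccl12, Cxcl14 and Cxcr3 in HIF2A cKO, and Ccl27a, Ccr10 and Cxcl10 in WT. The WT call of Cxcl14 was lost with these weights. Among all genes, the number called between stages with them stayed within 1.5 times of that without them. These gains are not read as a trait of chemokine genes.

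**Figure D1:**
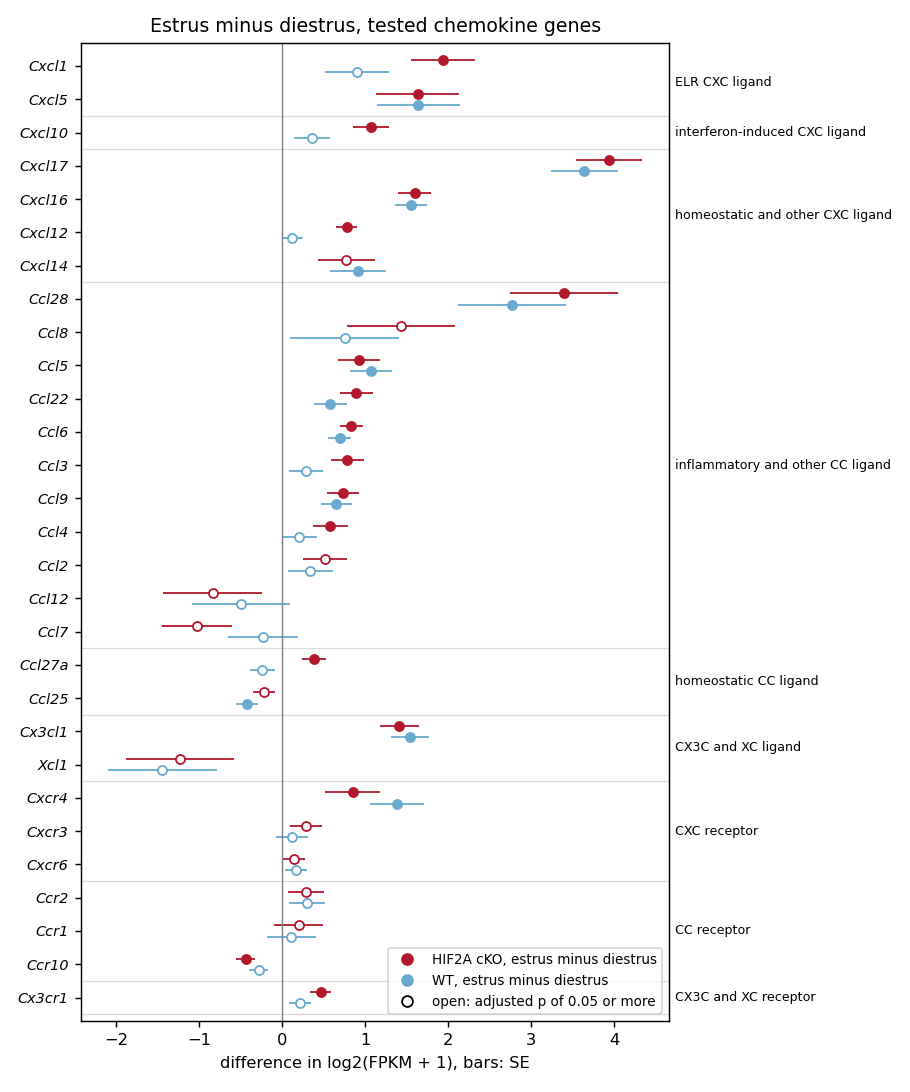
Estrus minus diestrus difference in log2(FPKM + 1) for 29 tested chemokine genes, grouped by role, with the standard error as a bar, HIF2A cKO in red above WT in blue. Filled points have a limma adjusted p under 0.05. Cxcl17 and Ccl28 lie farthest to the right, at 3.94 and 3.39 in HIF2A cKO.

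Cxcl17 and Ccl28, both ligands of mucosal surfaces, had the largest rises at estrus on the log2(FPKM + 1) scale. The ratio of group means was larger for Cxcl1 and Cxcl5 than for Ccl28 in both genotypes, and larger for Cxcl1 than for Cxcl17 in HIF2A cKO. Cxcl17, a mucosal chemokine that attracts monocytes and macrophages (chromosome 7, 25400053 to 25412886, minus strand), stood at 409, 361 and 468 FPKM in HIF2A cKO estrus libraries, against 38.0, 32.5, 32.3 and 10.9 FPKM in HIF2A cKO diestrus libraries. In WT it stood at 304, 266 and 307 FPKM at estrus, against 40.2, 24.9, 11.7 and 21.3 FPKM at diestrus. Every estrus library was far above every diestrus library. The ratio of the group means was 14.5 in HIF2A cKO (3.94 log2, SE 0.399, limma adjusted p = 4.12e-06) and 11.9 in WT (3.64 log2, SE 0.399, adjusted p = 1.28e-05). In bulk tissue, fewer cells of a type and less RNA per cell cannot be told apart.

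Ccl28, which draws antibody-secreting cells to mucosa through Ccr10 (chromosome 13, 119623819 to 119654359, plus strand), stood at 90.2, 79.5 and 106.2 FPKM in HIF2A cKO at estrus, against 13.6, 12.2, 2.22 and 8.54 FPKM at diestrus. WT libraries had 54.3, 62.3 and 84.4 FPKM at estrus, against 24.5, 6.37, 1.90 and 15.9 FPKM at diestrus. The stages did not overlap in either genotype, and the libraries numbered 3 were the lowest at diestrus in both. The rise was 3.39 log2 (SE 0.647, limma adjusted p = 0.000572) in HIF2A cKO and 2.77 (SE 0.647, adjusted p = 0.00288) in WT. Ccr10 itself was low and was called lower at estrus in HIF2A cKO. It reached 1 FPKM only in diestrus libraries, so the filter admitted it through the stage where it was high. It lay at 0.322 to 0.385 FPKM at estrus against 0.684 to 1.06 FPKM at diestrus in HIF2A cKO (-0.44 log2, SE 0.116, limma adjusted p = 0.00568), and at 0.473 to 0.593 against 0.63 to 1.17 FPKM in WT (-0.28 log2, adjusted p = 0.0555). The WT difference passed without WT diestrus replicate 1 or 2 (limma adjusted p = 0.0459 and 0.0263).

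The membrane-anchored ligands Cxcl16 and Cx3cl1 can be shed from the cell surface. Cxcl16, the ligand of Cxcr6 (chromosome 11, 70453983 to 70459984, minus strand), stood at 70.7, 63.3 and 76.4 FPKM in HIF2A cKO at estrus, against 29.3, 23.0, 18.9 and 19.9 FPKM at diestrus. WT uteri gave 64.4, 50.2 and 52.7 FPKM at estrus, against 21.7, 18.4, 12.0 and 22.5 FPKM at diestrus. The stages did not overlap in either genotype, with ratios of the means of 3.08 in HIF2A cKO (1.60 log2, SE 0.194, limma adjusted p = 1.72e-05) and 2.99 in WT (1.56 log2, adjusted p = 3.43e-05). Cxcl16 shares exon bases with Zmynd15 on the other strand, and whether counting used strand is not given in the sources used here. Cx3cl1 (fractalkine, chromosome 8, 94772009 to 94782427, plus strand) stood at 19.2, 18.8 and 18.4 FPKM in HIF2A cKO at estrus, against 8.41, 7.39, 4.56 and 5.92 FPKM at diestrus. Levels in WT were 20.6, 18.3 and 19.1 FPKM at estrus, against 9.85, 4.58, 3.93 and 6.93 FPKM at diestrus. Its estrus levels were closely grouped, and the rise was 1.41 log2 (SE 0.233, limma adjusted p = 0.00019) in HIF2A cKO and 1.54 (SE 0.233, adjusted p = 0.000141) in WT.

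**Figure D2:**
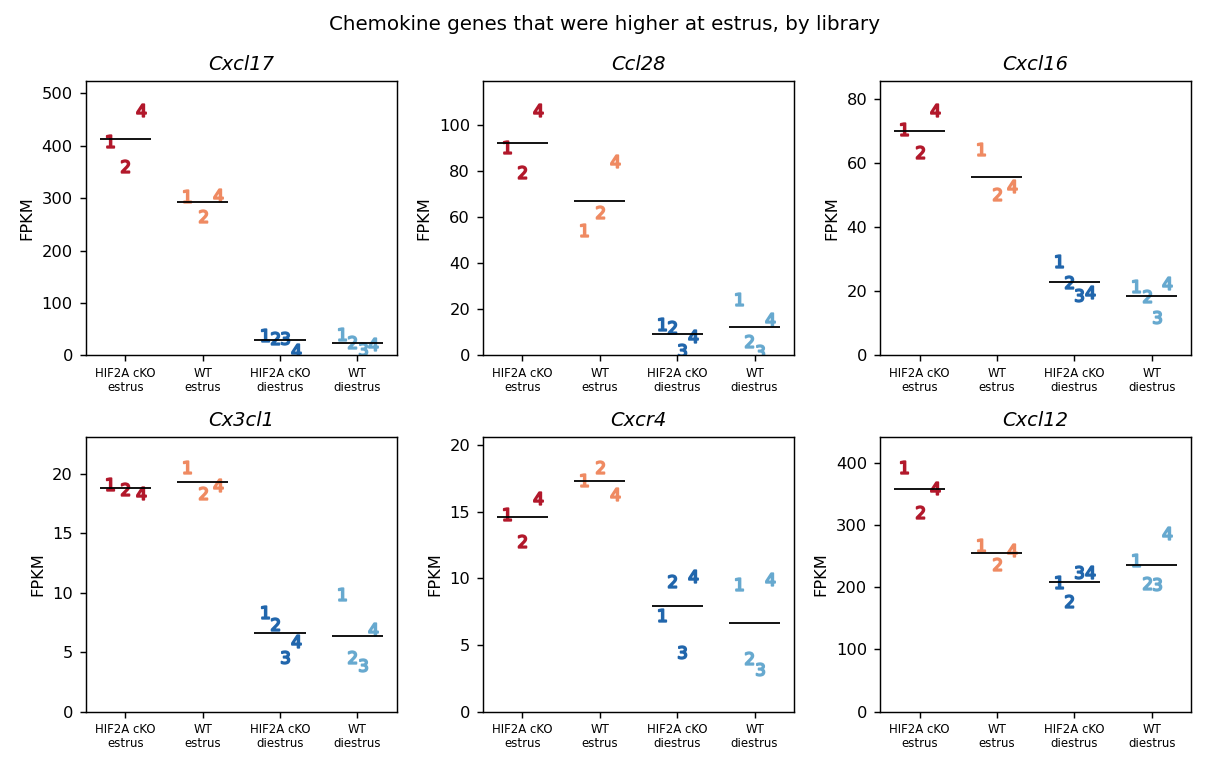
FPKM of 6 chemokine genes in every library, with each library drawn as its replicate number and the group mean as a line. In Cxcl17, Ccl28, Cxcl16, Cx3cl1 and Cxcr4 all estrus libraries lie above all diestrus libraries of the same genotype, while Cxcl12 does so in HIF2A cKO, where it averaged 359 FPKM at estrus and 209 FPKM at diestrus.

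Epithelial markers were likewise higher at estrus. Of 12 epithelial markers, with none at 0 in every library, 8 were higher and 0 lower at estrus in HIF2A cKO, and 10 were higher and 0 lower in WT. Of all genes tested, 25.5% were higher and 36.5% lower in HIF2A cKO, and 23% and 34.1% in WT. Their sum lay at 1567 to 1763 FPKM at estrus against 650 to 1207 FPKM at diestrus in HIF2A cKO, and at 1250 to 1510 against 541 to 764 FPKM in WT. Called stromal, blood endothelial and smooth muscle markers were more often lower than higher at estrus. Called leukocyte and mast cell markers went the other way, as did macrophage markers, given further on. Of 12 stromal markers, 3 were higher and 7 lower in HIF2A cKO, and 2 were higher and 9 lower in WT. Of 10 blood endothelial markers, 1 was higher and 3 lower in each genotype. Of 10 smooth muscle markers, 2 were higher and 4 lower in HIF2A cKO, and 1 was higher and 5 lower in WT. The part of epithelial, stromal, endothelial or muscle content in the chemokine values was not tested.

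Cxcl12 and Cxcl14 were the most abundant ligands at diestrus. Cxcl12, a stromal chemokine that retains cells through Cxcr4 (chromosome 6, 117168535 to 117181367, plus strand), stood at 394, 322 and 360.3 FPKM in HIF2A cKO at estrus, against 209, 177, 224 and 225 FPKM at diestrus. The WT values were 268, 237 and 260 FPKM at estrus, against 244, 207, 205 and 287 FPKM at diestrus. The stages were apart in HIF2A cKO (0.78 log2, SE 0.127, limma adjusted p = 0.000167) and overlapped in WT, where the difference of 0.12 log2 did not pass. Cxcl14, a homeostatic chemokine of epithelia and stroma (chromosome 13, 56288643 to 56296551, minus strand), stood at 120.1, 136 and 146 FPKM in HIF2A cKO at estrus, against 64.7, 64.4, 97.7 and 88.7 FPKM at diestrus. In WT it stood at 156, 158 and 152 FPKM at estrus, against 139, 73.9, 37.0 and 118 FPKM at diestrus. The stages did not overlap in either genotype, and WT diestrus spread widely. The difference of Cxcl14 was 0.78 log2 (SE 0.339, limma adjusted p = 0.0626) in HIF2A cKO, which did not pass, and 0.91 (SE 0.339, adjusted p = 0.0351) in WT. In WT the call was lost without WT estrus replicate 1, 2 or 4 or WT diestrus replicate 2 (adjusted p from 0.0728 to 0.0825), and the difference was 0.54 log2 without WT diestrus replicate 3. The WT call was also lost with library weights (0.42 log2, limma adjusted p = 0.0677) and with the replicate block in the libraries compared alone (0.54 log2, adjusted p = 0.0735). In HIF2A cKO it passed without HIF2A cKO diestrus replicate 3 (0.89 log2, adjusted p = 0.0495), and, through the shared estimate of spread, without WT diestrus replicate 1 or 3 (adjusted p = 0.0371 and 0.00477).

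The neighbouring CC ligands Ccl6 and Ccl9 were higher at estrus in both genotypes. Ccl6, a rodent CC ligand of Ccr1 (chromosome 11, 83587882 to 83593087, minus strand), stood at 29.2, 34.0 and 38.4 FPKM in HIF2A cKO at estrus, against 18.1, 15.2, 22.6 and 18.5 FPKM at diestrus. WT libraries had 41.8, 33.2 and 34.1 FPKM at estrus, against 22.1, 21.5, 25.6 and 19.3 FPKM at diestrus. No library of one stage reached the other, and the rise was 0.84 log2 (SE 0.135, limma adjusted p = 0.000157) in HIF2A cKO and 0.69 (SE 0.135, adjusted p = 0.000856) in WT. Ccl9, its neighbour with the same receptor, stood at 4.85, 4.19 and 5.96 FPKM in HIF2A cKO at estrus, against 2.82, 2.38, 3.29 and 1.98 FPKM at diestrus. WT uteri gave 5.11, 5.18 and 5.18 FPKM at estrus, against 2.38, 3.20, 4.56 and 1.97 FPKM at diestrus. Both genotypes again showed no overlap, with rises of 0.73 log2 (limma adjusted p = 0.00451) in HIF2A cKO and 0.65 (adjusted p = 0.0103) in WT. Ccl6 and Ccl9 are related in sequence, and the assignment of reads common to related genes is not given in the sources used here.

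Ccl5, which attracts T cells and monocytes through receptors that include Ccr1, stood at 4.36, 2.53 and 6.14 FPKM in HIF2A cKO at estrus, against 1.75, 1.77, 2.35 and 1.06 FPKM at diestrus. Levels in WT were 7.25, 6.23 and 6.84 FPKM at estrus, against 3.69, 1.79, 1.96 and 3.77 FPKM at diestrus. Estrus lay above diestrus without overlap, and the rise was 0.93 log2 (SE 0.252, limma adjusted p = 0.00606) in HIF2A cKO and 1.07 (SE 0.252, adjusted p = 0.00291) in WT. Ccl3, Ccl4 and Ccl22, described further on, reached at most 2.21, 1.64 and 2.14 FPKM.

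The Ccr2 ligands did not follow one pattern over the cycle. Ccl2, the main monocyte attractant, stood at 5.61, 4.10 and 4.91 FPKM in HIF2A cKO at estrus, against 3.31, 3.51, 4.70 and 1.496 FPKM at diestrus. The WT values were 4.52, 4.04 and 4.11 FPKM at estrus, against 2.74, 4.74, 3.85 and 1.76 FPKM at diestrus. The stages overlapped in both, and the differences of 0.52 log2 in HIF2A cKO (limma adjusted p = 0.109) and 0.34 in WT (adjusted p = 0.289) did not pass. Ccl2 passed in HIF2A cKO without HIF2A cKO diestrus replicate 3 (0.68 log2, limma adjusted p = 0.0392), and with library weights in HIF2A cKO (0.46 log2, adjusted p = 0.0157) and in WT (0.55 log2, adjusted p = 0.00859). Ccl7, another monocyte attractant, stood at 5.28, 3.38 and 4.93 FPKM in HIF2A cKO at estrus, against 15.0, 14.3, 9.34 and 4.99 FPKM at diestrus. In WT it stood at 1.95, 2.83 and 3.67 FPKM at estrus, against 2.13, 5.31, 7.07 and 1.32 FPKM at diestrus. HIF2A cKO replicates 1 to 3 at diestrus were the highest of all libraries, yet the estrus minus diestrus difference of -1.02 log2 did not pass (limma adjusted p = 0.0501), nor did -0.23 in WT. It passed in HIF2A cKO without HIF2A cKO diestrus replicate 4 (-1.32 log2, adjusted p = 0.0143) and without WT diestrus replicate 3 or 4 (adjusted p = 0.0305 and 0.0303).

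Ccl12, a mouse Ccr2 ligand, stood at 4.03, 3.30 and 5.92 FPKM in HIF2A cKO at estrus, against 8.03, 7.73, 20.4 and 3.78 FPKM at diestrus. WT libraries had 3.85, 2.02 and 2.11 FPKM at estrus, against 1.52, 9.41, 9.95 and 1.22 FPKM at diestrus. The stages overlapped in both genotypes, with a wide spread at diestrus, where the libraries numbered 3 were the highest. Neither difference passed (-0.83 log2 in HIF2A cKO, limma adjusted p = 0.242, and -0.49 in WT, adjusted p = 0.498). Ccl8, which in mice acts on Ccr8, stood at 58.6, 35.1 and 56.6 FPKM in HIF2A cKO at estrus, against 19.5, 12.9, 40.7 and 8.74 FPKM at diestrus. WT uteri gave 40.01, 28.7 and 46.8 FPKM at estrus, against 13.3, 20.7, 92.8 and 8.56 FPKM at diestrus. The diestrus libraries numbered 3 were the highest diestrus values in both genotypes. With all libraries the Ccl8 difference did not pass (1.43 log2, limma adjusted p = 0.0719, in HIF2A cKO and 0.75, adjusted p = 0.34, in WT), and without both libraries numbered 3 it was 1.83 log2 (adjusted p = 0.000542) in HIF2A cKO and 1.43 (adjusted p = 0.00336) in WT. It also passed in HIF2A cKO without HIF2A cKO or WT diestrus replicate 3 alone (adjusted p = 0.0256 and 0.0114), and in WT without WT diestrus replicate 3 alone (adjusted p = 0.0193). Ccl2, Ccl7, Ccl8 and Ccl12 lie close together on chromosome 11 and are related in sequence.

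Macrophage markers were likewise higher at estrus. Of 11 macrophage markers tested, 10 were higher and 0 lower at estrus in each genotype, and no marker of the 12 was at 0 in every library. Among all genes, 25.5% were higher in HIF2A cKO and 23% in WT. Their sum lay at 956 to 1234 FPKM at estrus against 424 to 480 FPKM at diestrus in HIF2A cKO, and at 938 to 1053 against 466 to 659 FPKM in WT. The part of macrophage content in the ligand values was not tested.

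Of the 4 neutrophil-attracting ligands that share an ELR motif and the receptor Cxcr2, Cxcl1 and Cxcl5 were tested. Both were called higher at estrus in HIF2A cKO, and Cxcl5 was in WT. Both reached 1 FPKM only in estrus libraries, so the filter admitted them through the stage where they were high. In each, 1 HIF2A cKO estrus library stood far above the rest. Cxcl1 (chromosome 5, 90891241 to 90893115, plus strand) stood at 2.24, 1.60 and 11.3 FPKM in HIF2A cKO at estrus, against 0.26, 0.43, 0.04 and 0.19 FPKM at diestrus. Levels in WT were 1.42, 0.88 and 1.18 FPKM at estrus, against 0.15, 0.12, 0.21 and 0.12 FPKM at diestrus. The stages did not overlap in either genotype. The difference of Cxcl1 was 1.94 log2 (SE 0.386, limma adjusted p = 0.00076) in HIF2A cKO, or 1.25 without HIF2A cKO estrus replicate 4 (adjusted p = 4.3e-05), and 0.90 (adjusted p = 0.0613) in WT, where it passed without HIF2A cKO estrus replicate 2 or 4 (adjusted p = 0.0345 and 0.000187). Cxcl5 (chromosome 5, 90759360 to 90761624, plus strand) stood at 2.08, 0.96 and 12.9 FPKM in HIF2A cKO at estrus, against 0.44, 0.40, 0.60 and 0.23 FPKM at diestrus. The WT values were 4.22, 1.64 and 3.88 FPKM at estrus, against 0.16, 0.37, 0.70 and 0.06 FPKM at diestrus. Again no estrus library was as low as a diestrus library. The rise was 1.64 log2 (SE 0.499, limma adjusted p = 0.0121) in HIF2A cKO, or 0.80 without HIF2A cKO estrus replicate 4 (adjusted p = 0.0304), and 1.64 (SE 0.499, adjusted p = 0.0134) in WT, where the call was lost without WT estrus replicate 1 (1.46 log2, adjusted p = 0.0546).

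Cxcl3, which was not tested, reached at most 0.128 FPKM and was listed at 0 in all 3 WT estrus libraries, against 0.024 to 0.128 FPKM in WT at diestrus. Cxcl2 and Ccl20 were too low to be tested, and their highest value was in the same library, HIF2A cKO estrus replicate 4, at 4.12 and 1.14 FPKM. The other libraries reached at most 0.62 FPKM of Cxcl2 and 0.39 FPKM of Ccl20. Ccl20, the ligand of Ccr6, was listed at 0 in all 4 WT diestrus libraries and in 3 of 4 HIF2A cKO diestrus libraries. The receptor Cxcr2 stayed at or under 0.365 FPKM and Cxcr1 at or under 0.028 FPKM. Of 11 neutrophil markers 5 were tested, and 3 were higher and 0 lower at estrus in each genotype, while 25.5% of all genes were higher in HIF2A cKO and 23% in WT. Without Ltf, which is among the genes with unreliable zeros, the neutrophil markers, mostly Retnlg, summed to 59.6, 79.8 and 78.9 FPKM in HIF2A cKO at estrus and to 77.7 to 109 FPKM in WT at estrus, against 31.8 to 38.1 FPKM in HIF2A cKO and 28.1 to 47.6 FPKM in WT at diestrus. In this sum HIF2A cKO estrus replicate 4 was not above replicate 2. S100a8 and S100a9 averaged 0.697 and 0.766 FPKM in WT at estrus, against 1.70 and 1.90 FPKM at diestrus. In HIF2A cKO they averaged 0.942 and 1.28 FPKM at estrus, against 0.561 and 0.709 FPKM at diestrus. The part of neutrophil content in the ligand values was not tested. Elane was at 0 in every library.

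**Figure D3:**
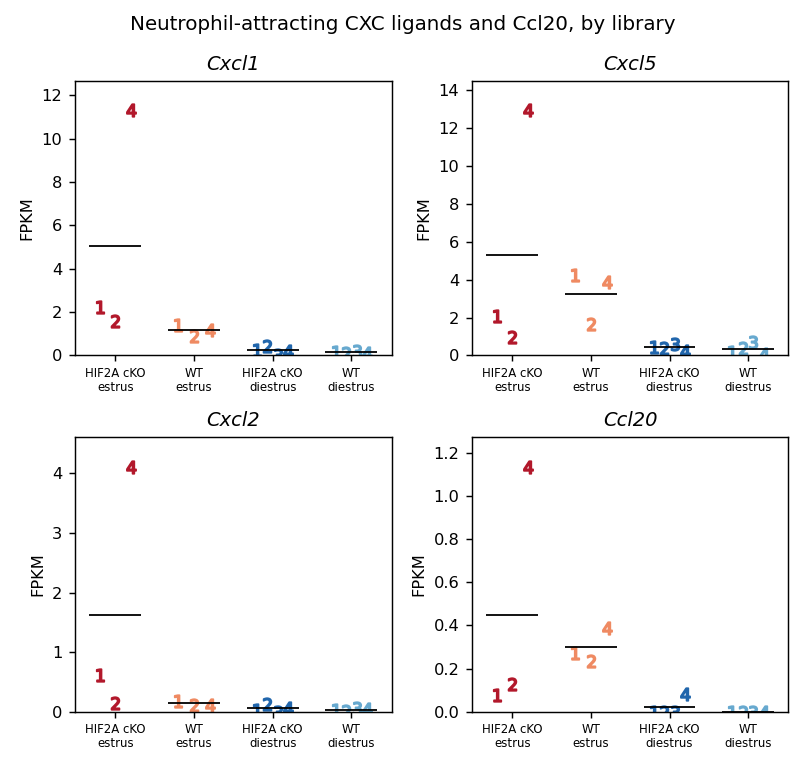
FPKM of Cxcl1, Cxcl5, Cxcl2 and Ccl20 in every library, with each library drawn as its replicate number and the group mean as a line. HIF2A cKO estrus replicate 4 is the highest point in all 4 panels, at 11.3 FPKM of Cxcl1 and 12.9 FPKM of Cxcl5.

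Of the interferon-induced ligands, Cxcl10, which binds Cxcr3 on T and natural killer cells, was tested. It lay at 1.66 to 3.04 FPKM at estrus against 0.339 to 1.17 FPKM at diestrus in HIF2A cKO, with no overlap (1.07 log2, SE 0.217, limma adjusted p = 0.000877). In WT it lay at 1.71 to 2.46 FPKM at estrus against 0.765 to 2.00 FPKM at diestrus, with overlap (0.36 log2, adjusted p = 0.167). Cxcl10 shares exon bases with Art3 on the other strand. Cxcl9 and Cxcl11 reached at most 0.613 and 0.138 FPKM.

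Among low inflammatory ligands, Ccl22, a ligand of Ccr4, lay at 0.82 to 2.14 FPKM at estrus against 0.11 to 0.512 FPKM at diestrus in HIF2A cKO (0.89 log2, limma adjusted p = 0.00168). It reached 1 FPKM only in estrus libraries, so the filter admitted it through the stage where it was high. In WT it lay at 0.628 to 1.72 FPKM at estrus against 0.233 to 0.427 FPKM at diestrus (0.58 log2, adjusted p = 0.0244), and this call was lost without WT estrus replicate 1 (0.36 log2, adjusted p = 0.138) or WT diestrus replicate 1 (adjusted p = 0.0533). Ccl3 and Ccl4, macrophage inflammatory proteins, rose in HIF2A cKO by 0.79 log2 (limma adjusted p = 0.00426) and 0.58 (adjusted p = 0.0282). The Ccl4 call was lost without HIF2A cKO estrus replicate 2 or 4 or HIF2A cKO diestrus replicate 2 or 4 (adjusted p from 0.0536 to 0.118). In WT the differences of Ccl3 and Ccl4 were 0.29 and 0.21 log2 and did not pass.

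Of the homeostatic CC ligands Ccl27a and Ccl25, the first was called higher at estrus in HIF2A cKO and the other lower at estrus in WT. Ccl27a, a ligand of Ccr10 (chromosome 4, 41769467 to 41774247, minus strand), stood at 9.11, 11.4 and 10.2 FPKM in HIF2A cKO at estrus, against 7.28, 7.37, 7.38 and 8.27 FPKM at diestrus. In WT it stood at 9.42, 8.45 and 8.66 FPKM at estrus, against 13.5, 7.41, 10.2 and 12.2 FPKM at diestrus. Estrus was above diestrus in HIF2A cKO without overlap (0.39 log2, limma adjusted p = 0.0365), and WT overlapped (-0.24 log2, adjusted p = 0.188). The HIF2A cKO call was lost without HIF2A cKO estrus replicate 2 or 4 or HIF2A cKO diestrus replicate 1, 2 or 3 (adjusted p from 0.0602 to 0.136), and the WT difference passed without WT diestrus replicate 2 (-0.39 log2, adjusted p = 0.00775). Ccl27a shares exon bases with Il11ra1 on the other strand. Ccl25, the ligand of Ccr9, lay at 0.572 to 0.767 FPKM at estrus against 0.736 to 1.40 FPKM at diestrus in HIF2A cKO and did not pass (-0.21 log2, limma adjusted p = 0.17). It was called lower at estrus in WT, where it lay at 0.352 to 0.782 FPKM against 0.859 to 1.22 FPKM at diestrus (-0.42 log2, limma adjusted p = 0.0143), a call lost without WT estrus replicate 1 (-0.33 log2, adjusted p = 0.0726). It reached 1 FPKM only in diestrus libraries, so the filter admitted it through the stage where it was high. Ccl25 shares exon bases with Elavl1 on the other strand.

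Receptors were expressed at lower levels than the leading ligands, none above 18.4 FPKM in any library. Cxcr4, the Cxcl12 receptor (chromosome 1, 128588199 to 128592293, minus strand), stood at 14.8, 12.8 and 16.0 FPKM in HIF2A cKO at estrus, against 7.25, 9.80, 4.50 and 10.2 FPKM at diestrus. WT libraries had 17.3, 18.4 and 16.3 FPKM at estrus, against 9.61, 4.02, 3.17 and 9.92 FPKM at diestrus. The stages did not overlap in either genotype. The rise was 0.85 log2 (SE 0.328, limma adjusted p = 0.0379) in HIF2A cKO and 1.38 (SE 0.328, adjusted p = 0.00311) in WT. The HIF2A cKO call was lost without HIF2A cKO estrus replicate 1, 2 or 4 or HIF2A cKO diestrus replicate 1 or 3 (adjusted p from 0.0567 to 0.105).

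Cx3cr1, the fractalkine receptor of monocytes and macrophages, stood at 9.58, 9.95 and 11.3 FPKM in HIF2A cKO at estrus, against 7.32, 6.91, 7.93 and 6.52 FPKM at diestrus. WT uteri gave 12.0, 9.84 and 8.90 FPKM at estrus, against 9.84, 6.81, 7.84 and 10.3 FPKM at diestrus. The HIF2A cKO stages were apart (0.47 log2, SE 0.131, limma adjusted p = 0.00764), while the WT stages overlapped (0.22 log2, adjusted p = 0.167). Ccr2, the receptor of inflammatory monocytes, stood at 9.01, 7.73 and 9.82 FPKM in HIF2A cKO at estrus, against 6.14, 5.69, 10.2 and 6.81 FPKM at diestrus. Levels in WT were 11.4, 10.3 and 12.9 FPKM at estrus, against 7.78, 7.30, 14.5 and 8.36 FPKM at diestrus. The library numbered 3 was the highest at diestrus in both genotypes and the stages overlapped through it. Ccr2 did not pass with all libraries (0.29 log2 in HIF2A cKO, limma adjusted p = 0.253, and 0.30 in WT, adjusted p = 0.24) and passed without both libraries numbered 3 (0.45 log2, adjusted p = 0.00226, and 0.51, adjusted p = 0.00127). In WT it also passed without WT diestrus replicate 3 alone (adjusted p = 0.0201).

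Ccr1, a receptor of Ccl5, Ccl6 and Ccl9 on monocytes and neutrophils, stood at 3.55, 3.36 and 3.50 FPKM in HIF2A cKO at estrus, against 3.103, 2.65, 4.98 and 1.55 FPKM at diestrus. In WT it stood at 3.85, 2.65 and 2.72 FPKM at estrus, against 2.69, 2.74, 5.06 and 1.32 FPKM at diestrus. Its stages overlapped, and differences of 0.20 log2 in HIF2A cKO and 0.11 in WT did not pass. Cxcr3 and Cxcr6 stayed between 0.576 and 2.11 FPKM and did not pass in either genotype, except that Cxcr3 passed in HIF2A cKO without HIF2A cKO diestrus replicate 3 (0.44 log2, limma adjusted p = 0.0392).

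Xcl1, a ligand made by natural killer and T cells that attracts Xcr1-bearing dendritic cells (chromosome 1, 164931644 to 164935527, minus strand), had its highest values at diestrus. It stood at 2.03, 1.95 and 2.54 FPKM in HIF2A cKO at estrus, against 3.44, 5.01, 24.4 and 3.44 FPKM at diestrus. WT libraries had 5.03, 2.19 and 1.64 FPKM at estrus, against 4.18, 13.2, 25.7 and 4.20 FPKM at diestrus. The libraries numbered 3, which were also the highest in natural killer markers, were the highest in both genotypes, and the stages were apart in HIF2A cKO and overlapped in WT. The part of natural killer cell content in the Xcl1 values was not tested. The estrus minus diestrus difference was -1.23 log2 (limma adjusted p = 0.12) in HIF2A cKO and -1.44 (adjusted p = 0.0759) in WT. In WT it passed without both libraries numbered 3 (-0.97 log2, adjusted p = 0.0438), and without HIF2A cKO diestrus replicate 3 or WT diestrus replicate 1 or 4 (adjusted p from 0.0252 to 0.0449). None of the 10 natural killer markers was called in either genotype by limma, and 0 had an unadjusted p under 0.05. Xcl1 shares exon bases with the gene model Gm20743 on the other strand.

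**Figure D4:**
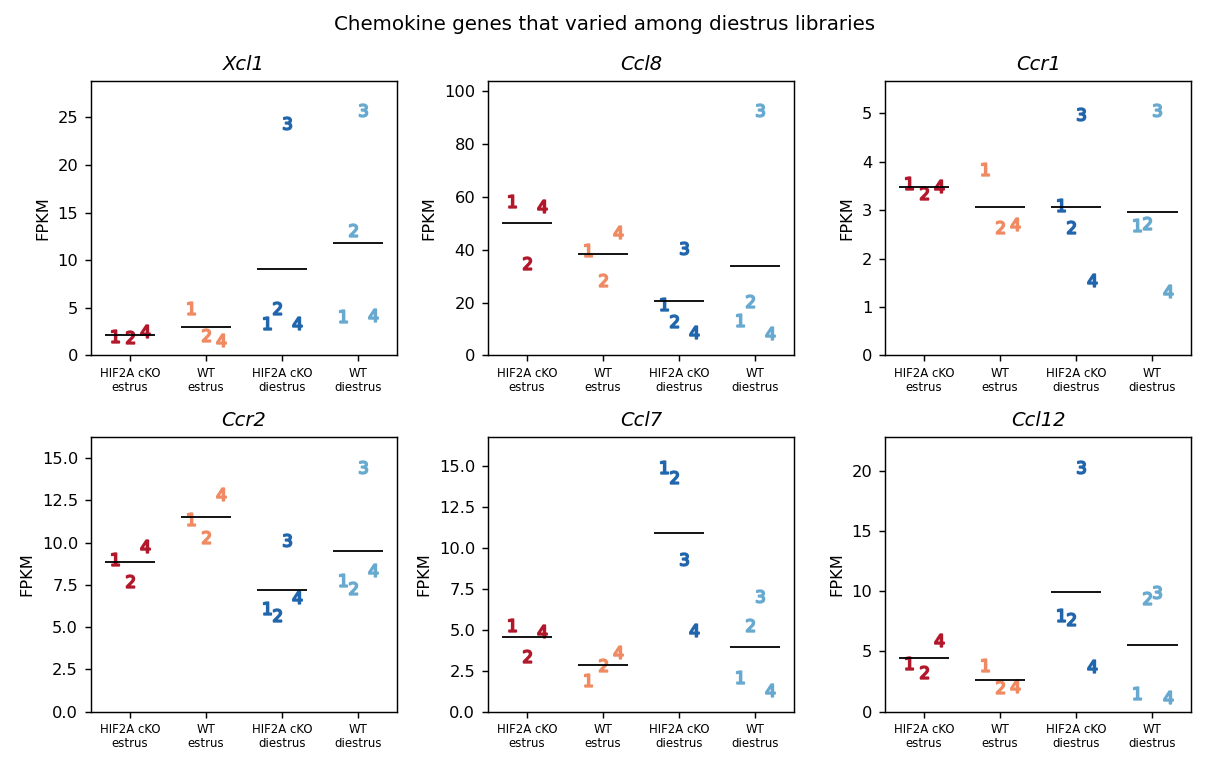
FPKM of 6 chemokine genes in every library, with each library drawn as its replicate number and the group mean as a line. In Xcl1, Ccl8, Ccr1, Ccr2 and Ccl12 the diestrus library numbered 3 is the highest diestrus value in both genotypes, as in Xcl1 at 24.4 FPKM in HIF2A cKO and 25.7 FPKM in WT. Ccl7 is highest in HIF2A cKO diestrus replicates 1 and 2.

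The genotypes were compared at diestrus to see which chemokine genes differ with the HIF2A cKO label. Of the 30 genes, Ccl7 was higher and Ccl27a and Cxcl10 were lower in HIF2A cKO, 3 calls in all, while 23.9% of all genes were called, 13.8% higher and 10% lower. The share of chemokine genes called was below that background. Ccl7 averaged 10.9 ± 4.68 FPKM in HIF2A cKO and 3.96 ± 2.695 FPKM in WT (SD, n = 4 each), a ratio of 2.75 (1.34 log2, SE 0.39, limma adjusted p = 0.0281), and the libraries of the genotypes overlapped. With library weights the Ccl7 difference was 2.21 log2 (limma adjusted p = 3.55e-05), and with the diestrus libraries compared alone it did not pass (adjusted p = 0.103). Ccl27a averaged 7.57 ± 0.464 FPKM in HIF2A cKO and 10.8 ± 2.66 FPKM in WT (-0.44 log2, SE 0.137, limma adjusted p = 0.0368), and with library weights the difference was -0.66 log2 (adjusted p = 0.0002). Library weights also raised the number of all genes called at diestrus, as given further on. Cxcl10 averaged 0.571 ± 0.400 FPKM in HIF2A cKO and 1.40 ± 0.556 FPKM in WT (-0.61 log2, SE 0.201, limma adjusted p = 0.0433). With the diestrus libraries compared alone, Ccl27a and Cxcl10 did not pass either. All 30 genes had overlapping libraries at diestrus, where 15.8% of all genes had no overlap.

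With the replicate number as a block in the diestrus libraries, Ccl7 still passed (limma adjusted p = 0.0411), Ccl27a and Cxcl10 did not (adjusted p = 0.0774 and 0.0595), Ccr2 was lower in HIF2A cKO (-0.34 log2, adjusted p = 0.0402), and 2034 genes in place of 3410 were called overall. The Ccl7 call was lost without HIF2A cKO diestrus replicate 1 or 2 or WT diestrus replicate 1 or 4 (adjusted p from 0.0766 to 0.0917). The Ccl27a call was lost without HIF2A cKO estrus replicate 4, WT estrus replicate 4, HIF2A cKO diestrus replicate 1 or 2 or WT diestrus replicate 1, 3 or 4 (adjusted p from 0.0502 to 0.1). The Cxcl10 call was lost without HIF2A cKO estrus replicate 2, any WT estrus replicate, HIF2A cKO diestrus replicate 1, 2 or 4, or WT diestrus replicate 1, 2 or 3 (adjusted p from 0.0533 to 0.125). Calls were gained for Ccl4 (-0.51 log2, limma adjusted p = 0.0392) and Ccl6 (-0.34, adjusted p = 0.0437) without HIF2A cKO diestrus replicate 3, and for Cx3cr1 (-0.33, adjusted p = 0.0442) without WT diestrus replicate 2. Without both libraries numbered 3, Ccr2 (-0.29 log2, limma adjusted p = 0.0475) and Cxcl14 (-0.57, adjusted p = 0.0483) were also lower in HIF2A cKO.

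At estrus 0 of the 30 genes were called between the genotypes by limma, while 0.105% of all genes were called (0.07% higher and 0.035% lower), and 3 chemokine genes had an unadjusted p under 0.05. These were Cxcl12, Cxcl1 and Ccl5. Cxcl12 averaged 359 ± 36.2 FPKM in HIF2A cKO and 255 ± 16.0 FPKM in WT (SD, n = 3 each), with every HIF2A cKO estrus library above every WT one (0.49 log2, SE 0.135, limma adjusted p = 0.331). In the 6 estrus libraries fitted alone the same difference had an adjusted p of 0.0418 (limma). Cxcl1 averaged 5.05 ± 5.42 FPKM in HIF2A cKO and 1.16 ± 0.272 FPKM in WT (1.13 log2, limma adjusted p = 0.553), with 11.3 FPKM in replicate 4 of HIF2A cKO. Ccl5 averaged 4.35 ± 1.81 FPKM in HIF2A cKO and 6.77 ± 0.514 FPKM in WT (-0.60 log2, limma adjusted p = 0.656), without overlap. In all, 8 of the 30 genes had no overlap between genotypes at estrus, the others being Cxcl14, Cxcl17, Cxcr4, Ccr2 and Ccr10. Of all 14278 genes, 26.4% had none, so the share among chemokine genes was near the background.

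**Figure D5:**
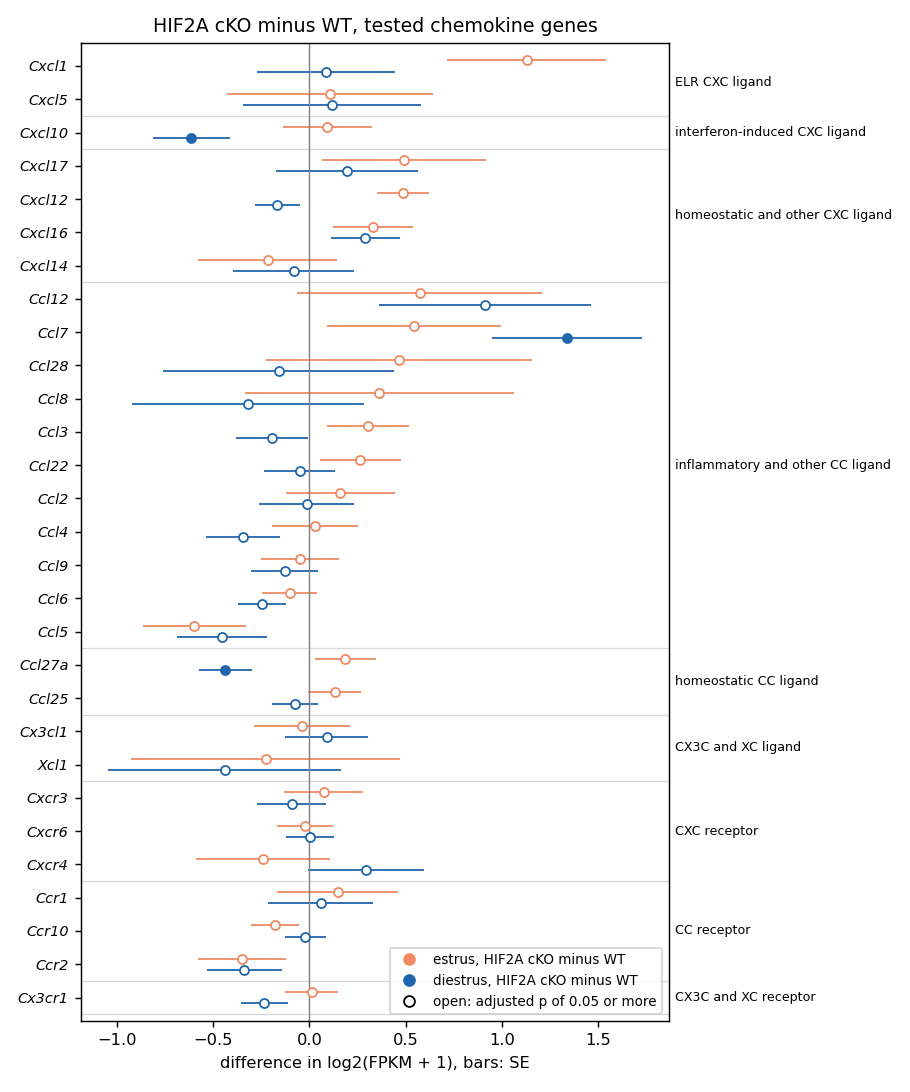
HIF2A cKO minus WT difference in log2(FPKM + 1) for 29 tested chemokine genes, with the standard error as a bar, estrus in orange above diestrus in blue. Filled points have a limma adjusted p under 0.05. Only the diestrus points of Ccl7 at 1.34, Ccl27a at -0.44 and Cxcl10 at -0.61 are filled.

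The interaction, the estrus minus diestrus difference in HIF2A cKO minus that in WT, tested whether the cycle change differed between genotypes. By limma 0 of the 30 genes were called, while 0.035% of all genes were called (0.014% with a positive and 0.021% with a negative interaction), and 3 had an unadjusted p under 0.05. Cxcl12 had an interaction of 0.65 log2 (SE 0.179, limma adjusted p = 0.142), Ccl27a 0.62 (adjusted p = 0.184) and Cxcl10 0.71 (adjusted p = 0.261). With the replicate block Cxcl12 passed (0.65 log2, limma adjusted p = 0.0395), as 462 genes did in all. Replicate numbers paired neither the genotypes at estrus nor the stages, so this block rests on a pairing seen only at diestrus. Cxcl12 also passed without HIF2A cKO diestrus replicate 3 (0.69 log2, limma adjusted p = 0.0433) or without both libraries numbered 3 (0.75, adjusted p = 0.0321). Ccl27a passed without WT diestrus replicate 2 (0.78 log2, limma adjusted p = 0.0337). The 7 genes called higher at estrus in HIF2A cKO and not in WT, which were Ccl3, Ccl4, Ccl27a, Cx3cr1, Cxcl1, Cxcl10 and Cxcl12, did not pass the test of that difference with all libraries unblocked. Of the 7, Cxcl12 passed it with the block, and Ccl27a, Cx3cr1, Cxcl10 and Cxcl12 passed it with library weights. With those weights 5225 of all 14278 genes passed it, beside 5 of the 30 chemokine genes.

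The 19 genes that were not tested comprised 10 ligands and 9 receptors. Of these, 15 stayed under 1 FPKM in every library, with 0.8 FPKM the highest value, and Ccl26 among them was listed at 0 throughout. Ccl1, Ccl20, Cxcl2 and Cxcl13 reached 1 FPKM in 1 library each. Ccr7 and its ligand Ccl19, which guide dendritic and T cells to lymph nodes, reached at most 0.456 and 0.141 FPKM. Ccr4, Ccr6, Ccr8 and Ccr9, whose ligands were described above, reached at most 0.112, 0.203, 0.09 and 0.218 FPKM, and Xcr1 0.76 FPKM.

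Scavenging and chemokine-like receptors changed in both directions over the cycle. Of 9 tested, 4 were higher and 2 lower at estrus in each genotype, and 3 were higher and 0 lower in HIF2A cKO than in WT at diestrus. Calls over the cycle made up 66.7% in each genotype, near the 62% and 57.2% of all genes in HIF2A cKO and WT. At diestrus the calls between genotypes made up 33.3%, beside 23.9% of all genes. Ackr3, which binds Cxcl12 without G protein signalling, averaged 10.7 ± 0.320 FPKM at estrus and 33.6 ± 7.34 FPKM at diestrus in HIF2A cKO (-1.54 log2, limma adjusted p = 1.84e-06), and 12.6 ± 0.998 and 21.2 ± 3.12 FPKM in WT (-0.70 log2, adjusted p = 0.00106). Ackr4, a scavenger of Ccl19 and Ccl25 chosen after its values were seen, averaged 0.915 FPKM at estrus and 10.8 FPKM at diestrus in HIF2A cKO (-2.57 log2, limma adjusted p = 9.73e-06), and 0.691 and 4.51 FPKM in WT (-1.65 log2, adjusted p = 0.000428). At diestrus Ackr3, Ackr4 and Cmklr1, the chemerin receptor, which was chosen after its values were seen, were higher in HIF2A cKO than in WT by 0.63, 1.09 and 1.31 log2 (limma adjusted p = 0.00721, 0.0143 and 0.00318). Cd74, a receptor for Mif, averaged 307 FPKM at estrus and 201 FPKM at diestrus in HIF2A cKO, and 341 and 231 FPKM in WT.

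Inducers and transcription factors of chemokine genes were mostly higher at estrus. Of 18 tested, 14 were higher and 0 lower in each genotype, with a median of 0.59 log2 in HIF2A cKO and 0.58 in WT, and Il17a was at 0 in every library. Of all genes, 25.5% were higher in HIF2A cKO and 23% in WT. Stat3 and Nfkbia had the highest means of this list, Nfkbia rising by 0.59 log2 in HIF2A cKO (limma adjusted p = 0.036) and Stat3 not passing in either genotype. Il1a, chosen after its values were seen, was called higher in HIF2A cKO than in WT at estrus (1.42 log2, limma adjusted p = 0.00941). Other chemoattractants had 5 higher and 2 lower of 10 in HIF2A cKO and 6 higher and 1 lower in WT, among them Rarres2, the chemerin precursor, at 0.81 log2 in HIF2A cKO (limma adjusted p = 0.000196) and 0.42 in WT (adjusted p = 0.017), and Mif, at 0.33 log2 in HIF2A cKO (adjusted p = 0.166) and 0.77 in WT (adjusted p = 0.00566). Calls among the other chemoattractants made up 70% in each genotype. Of 24 signalling and desensitisation genes, 9 were higher and 9 lower in HIF2A cKO, and 6 were higher and 3 lower in WT. That is 75% called in HIF2A cKO and 37.5% in WT, beside 62% and 57.2% of all genes. Cdc42 and Gnai2 had the highest means there, and Gnai2 fell by 0.25 log2 in HIF2A cKO (limma adjusted p = 0.0112). Of 14 genes of presentation and processing, 4 were higher and 4 lower in HIF2A cKO, and 5 were higher and 2 lower in WT, with Mmp14 at 1.60 log2 in HIF2A cKO (limma adjusted p = 1.5e-06) and 1.38 in WT (adjusted p = 8.37e-06), and Mmp2 at 1.17 (adjusted p = 0.000238) and 0.53 (adjusted p = 0.0363). Calls made up 57.1% of these 14 in HIF2A cKO and 50% in WT, below the shares of all genes.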

How the data were processed

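RNA was measured in 14 uterine libraries. Total RNA from Qiagen RNeasy columns with DNase treatment went into the Illumina TruSeq RNA kit, per the labels' protocols. The authors deposited 1 table of FPKM values. TopHat2 2.0.4, Cufflinks 2.0.2 and mm10 are named without their roles, per the submitters' processing notes. No source used here gives the annotation, options or strand setting. FPKM divides by the library total, so abundant genes lower the others, and reads shared by related or overlapping genes cannot be told apart. Depth is unknown, and low values are the least precise.

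The values were tested as log2(FPKM + 1), a scale that understates changes of low genes, with limma 3.58.1 in R 4.3.3, 1 mean per group, a mean-variance trend and Benjamini-Hochberg adjustment over 14278 genes at 0.05. The fit kept genes that reached 1 FPKM in 3 or more libraries. It dropped those listed at 0 throughout 1 group but averaging 50 FPKM or more in some other group, where a 0 can be a failed estimate. The fit was tested on simulated data. Ligands and receptors with a group mean of at least 3 FPKM were given per library. Outside the chemokine genes, Epas1 and the genes of highest mean of each list were named. Members and lists of pathway genes and cell markers were chosen with earlier results of these data known. Alternatives were other pseudocounts, filters, scalings, eBayes settings, library weights, libraries compared alone, a replicate block, omission of single libraries and the diestrus libraries numbered 3 left out. Residuals of same-numbered diestrus libraries correlated at 0.321, 0.115, 0.622 and 0.217. The main fit was unpaired, and the replicate block was run only as an alternative. No label says what a number shares. HIF2A cKO replicate 2 was closest to WT replicate 1. Gene positions are from GENCODE M21 on mm10, and promoters from RefSeq on GRCm38.p6. Counts cover all tested genes, of which 1 is not reported here by name.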

Additional observations from a re-analysis of the deposited data

Results flagged for a closer look

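In the groups of 4 diestrus libraries, 58 sets of values of the tested chemokine genes were checked for a library far from the others, and 3 stood out, where chance gives about 1 in 20. All 3 were HIF2A cKO diestrus libraries. Ccl27a was 8.27 FPKM in replicate 4, above 7.28 to 7.38 FPKM in the other replicates. Cxcl10 was 1.17 FPKM in replicate 3, above 0.339 to 0.43 FPKM in the others. Cxcl17 was 10.95 FPKM in replicate 4, below 32.3 to 38.0 FPKM in the others. Groups of 3 libraries were not checked in this way.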

How the results depend on the processing

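Of 150 pairs of a chemokine gene and a comparison, 33 were called, and 23 of these stayed called in every alternative in which the gene was tested. Of the 117 not called, 33 were called in at least 1 alternative, and no called value changed its sign. At estrus the replicate numbers did not pair the genotypes (residual correlations 0.08, 0.096 and -0.047), nor did they pair the stages (-0.135 to 0.018). With the replicate block in the libraries compared alone, 26 chemokine genes were called between stages in HIF2A cKO and 13 in WT, while 63.6% and 50.3% of all genes were. The cause of the changes below was not tested.

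Chemokine genes called at diestrus between genotypes (3) became 1 without the filter on low values, 0 with the libraries compared alone, 10 with library weights and 0 to 5 with 1 library left out. All genes called there (3410) became 401 with the libraries alone, 7885 with library weights, 2034 with the replicate block in the libraries alone and 1489 to 5028 with 1 library left out. Chemokine genes called at estrus between genotypes (0) became 1 with the libraries alone, 1 with weights and 1 with the replicate block in the libraries alone. All genes called there (15) became 7 at a pseudocount of 0.1, 0 with a filter at 5 FPKM, 26 without a filter, 23 with quantile normalization, 332 with the libraries alone, 1331 with weights, 138 with the replicate block in the libraries alone, 64 without the diestrus libraries numbered 3 and 1 to 30 with 1 library left out. Chemokine genes called in the interaction (0) became 5 with weights, 1 with the replicate block in either form, 1 without the libraries numbered 3 and 0 to 1 with 1 library left out. All genes called there (5) became 8 at a pseudocount of 0.1 or 0.5, 11 without a filter, 10 with quantile normalization, 5225 with weights, 462 with the replicate block in either form, 1194 without the libraries numbered 3, 12 with the genes listed at 0 kept and 1 to 1181 with 1 library left out. Counts of calls between the stages stayed within 1.5 times of the values in the report.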
